A study of Homo sapiens with 4 samples.

Results

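The cytosolic ribosomal protein genes encode the proteins that, with the ribosomal RNAs, build the small and large subunits of the ribosome that translates nuclear messages. They were taken as the protein-coding genes named RPL or RPS with a number and at most an A or X, together with RPLP0, RPLP1, RPLP2 and RPSA. The rule found 77 of the 20263 gene IDs in the table, 31 of the small subunit and 46 of the large one, and all 77 passed the filter on low counts. The choice used names only, not measured values. Genes with another name pattern that also encode ribosomal proteins, such as FAU, were not counted among them.

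The libraries came from MDA-MB-231, an established line of human triple-negative breast cancer cells, grown in DMEM with 10% fetal bovine serum and antibiotics. The groups were Neoribocic for 24 h and DMSO, the solvent control, with 2 libraries each; the treatment protocol calls the compound Rib_CA, which was read as the same treatment, and no source used here gives its dose. Each mRNA library was made from 1.4 µg of total RNA. Whether the 2 libraries of a group are separate cultures is not stated in the labels, so p-values measure the spread between these libraries, which may be technical.

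The library totals were 41572094 and 43014212 counts for Neoribocic replicates 1 and 2, and 34774542 and 37754168 for DMSO replicates 1 and 2. Of 4 genes known to be high in this line, VIM, CD44, MET and EGFR, all were measured, at 57.7 CPM or more in every library (counts relative to library size, scaled between libraries by TMM). CD44, MET and EGFR were lower with Neoribocic, with log2 fold changes of -0.58, -1.71 and -1.47 (edgeR adjusted p = 0.0436, 0.00139 and 0.00142), and VIM was at -0.41 (0.183). The epithelial marker EPCAM stood at 9.31 to 9.93 CPM, and CDH1 and ESR1 did not pass the filter on low counts. The 13 mitochondrially encoded genes held 5.76% and 7.24% of the counts in the Neoribocic libraries, against 8.68% and 21.7% in the DMSO libraries.

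Ribosomal proteins are made in near equal numbers, since each ribosome carries most of them once. Their messages are short and abundant, and in mammals they begin with a C followed by a run of C and T bases, the 5′ terminal oligopyrimidine (TOP) tract. Through this tract and the protein LARP1, the kinase complex mTORC1 controls how well these messages are translated and how long they last. Many ribosomal protein genes have processed pseudogenes, and several carry small nucleolar RNA genes in their introns.

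Many of these genes, but not all, have the tract at their annotated start, so the transcript starts of 8 of them are shown. The sequences are RefSeq's, on GRCh38.p14, with 20 bases before and 20 from the annotated start, and capitals mark the C at the start with the C and T bases that follow it. RPL13 has 3 annotated starts there, and a single start with the tract is shown. RPS21, RPS27 and RPLP1 had large positive fold changes, of which that of RPLP1 alone passed edgeR's test at an adjusted p under 0.05. RPL13 and RPS3 rose in most fits. RPS6 and RPL14 had small negative log2 fold changes that did not pass without a correction for length and GC content. RPS29, with the largest fold change of the 77, did not pass either and has no tract at its annotated start.
RPS21 (chr20:62387083-62387122, plus strand): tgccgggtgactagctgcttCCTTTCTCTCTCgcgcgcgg
RPS27 (chr1:153990742-153990781, plus strand): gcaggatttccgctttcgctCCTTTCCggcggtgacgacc
RPLP1 (chr15:69452798-69452837, plus strand): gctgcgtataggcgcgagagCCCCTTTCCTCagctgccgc
RPL13 (chr16:89560662-89560701, plus strand): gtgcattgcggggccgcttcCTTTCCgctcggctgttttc
RPS3 (chr11:75399498-75399537, plus strand): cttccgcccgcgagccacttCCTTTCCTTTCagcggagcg
RPS6 (chr9:19380217-19380256, minus strand): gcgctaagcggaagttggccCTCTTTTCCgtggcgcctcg
RPL14 (chr3:40457319-40457358, plus strand): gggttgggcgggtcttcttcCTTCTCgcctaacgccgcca
RPS29 (chr14:49598691-49598730, minus strand): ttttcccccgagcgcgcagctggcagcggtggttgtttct

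The search asked for a C at the annotated start followed by at least 4 bases that are C or T, on the strand of the gene. It found the tract at 46 of the 77 RefSeq starts listed for 62 of the genes, or 59.7%, against 1429 of all 35116 RefSeq starts, or 4.07%. The other 15 genes have no entry and were not searched. Of the 46 genes with the tract 26 rose with Neoribocic, as did 9 of the 16 without it, where 19.1% of all genes tested were called higher. Their median log2 fold changes were 1.09 and 0.68, a difference that was not tested. These matches describe letters at annotated starts, which may not be the starts used in these cells.

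Ribosomal protein messages held a larger share of the counts with Neoribocic. They took 7.68% and 4.80% of all counts in Neoribocic replicates 1 and 2, against 3.42% and 2.58% in DMSO replicates 1 and 2. Both Neoribocic libraries lay above both DMSO libraries, and the group means were 6.24% ± 2.04 and 2.998% ± 0.593 (SD, n = 2 each), a ratio of 2.08. Leaving the mitochondrially encoded genes out of the total gave 6.66% ± 2.10 and 3.52% ± 0.318 (SD). A two-sided exact permutation test of 2 libraries against 2 cannot give a p below 0.33, which is the value here. Shares of counts are relative, so more message of these genes and less of all other genes cannot be told apart, nor can a change in RNA per cell.

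Of the 77 genes 41 rose and 0 fell, by edgeR's quasi-likelihood test with a Benjamini-Hochberg adjusted p under 0.05 over all genes tested. Of all genes tested, 19.1% were called higher and 21.3% lower. The median log2 fold change, Neoribocic over DMSO, was 1.0 for the ribosomal protein genes and 0.01 for all genes tested, and 71 of the 77 values were positive. The rise was at least 2-fold in 28 of the 41 called genes, where 11.9% of all genes tested were called higher at that size. In 56 genes both Neoribocic libraries lay above both DMSO libraries and in 3 below, where 37.8% and 37.3% of all genes tested did so. By subunit, 16 of 31 small subunit genes and 25 of 46 large subunit genes were called higher, with medians of 1.03 and 0.95. A correction described further on removes trends with transcript length and GC content. With it, 9 of the 77 genes were called higher and 3 lower, with a median of 0.30. Both are smaller shares than those of all genes tested, at 16.7% and 18.5%. The number of calls also depended on single libraries. In each fit without 1 library the lone library of its group is assumed to vary like the pair of the other group, which supplies the spread. The number called higher was 21 without DMSO replicate 1 (12.1% of all genes called higher), 11 without DMSO replicate 2 (11.8%), 16 without Neoribocic replicate 1 (7.09%) and 56 without Neoribocic replicate 2 (15.8%). Without Neoribocic replicate 1 the median log2 fold change was 0.58. Without DMSO replicate 2 RPL6 was called lower (16.8% of all genes), and without Neoribocic replicate 1 none of the 77 was (10.4% of all genes).

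**Figure D1:**
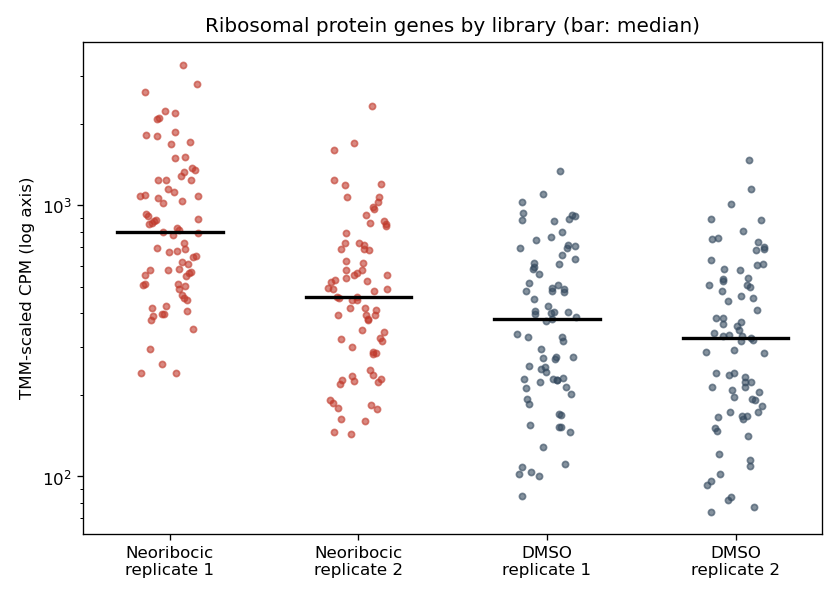
TMM-scaled CPM (vertical log axis) of the 77 ribosomal protein genes, 1 point a gene, in Neoribocic replicates 1 and 2 (red) and DMSO replicates 1 and 2 (dark blue-grey); the bar is the median. The medians are 794.9 and 459 CPM in the Neoribocic libraries and 380.2 and 325 CPM in the DMSO libraries.

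The Neoribocic libraries also differed from each other in these genes. Replicate 2 stood below replicate 1 in 74 of 77 genes, with a median log2 difference of -0.73 (replicate 2 minus replicate 1), against 0.01 over all genes tested. DMSO replicate 2 stood below DMSO replicate 1 in 63 of 77 genes, with a median of -0.23. With 1 library on each side these differences have no test. The counts behind each gene ran from 2431 to 140201 in a library, so counting error was at most 2.03% of a count and small beside the spread between libraries.

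Messages for the proteins of the stalk all rose in the uncorrected fit. The stalk is the flexible arm of the large subunit that recruits translation factors. RPLP1 (ENSG00000137818) had 1152 and 561 CPM in the Neoribocic libraries, against 244 and 241 CPM in the DMSO libraries. Its log2 fold change was 1.82 ± 0.34 (SE; edgeR adjusted p = 0.00674), and the call was lost without DMSO replicate 1 or 2 (adjusted p = 0.0727 and 0.0696). RPLP2 (ENSG00000177600) had 418 and 321 CPM with Neoribocic, against 185 and 166 CPM with DMSO, a log2 fold change of 1.07 ± 0.21 (edgeR adjusted p = 0.00520). Its call held when each library was left out in turn, with adjusted p-values up to 0.0430. RPLP0 (ENSG00000089157), the base that binds the other stalk proteins, had 1820.3 and 1236 CPM with Neoribocic, against 941 and 754 CPM with DMSO. It rose by 0.85 ± 0.25 (edgeR adjusted p = 0.0270), and did not pass without DMSO replicate 2 (0.112) or Neoribocic replicate 1 (0.194). RPL12, which sits beside the stalk base, had 2628 and 1601 CPM with Neoribocic, against 1030.2 and 891 CPM with DMSO, and rose by 1.14 ± 0.27 (edgeR adjusted p = 0.0123). Without DMSO replicate 2 or Neoribocic replicate 1 it did not pass (0.0729 and 0.0960). With the correction RPLP2, RPLP0 and RPL12 stood at 0.04, 0.25 and 0.30 and were not called (edgeR adjusted p = 0.852, 0.382 and 0.242).

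Messages for the proteins that carry 5S rRNA showed smaller differences. RPL5 and RPL11 form a particle with 5S rRNA that joins the large subunit and can also bind and inhibit MDM2. RPL5 (ENSG00000122406) had 888 and 856 CPM with Neoribocic, against 911 and 701 CPM with DMSO, so the groups overlapped (0.11 ± 0.21; edgeR adjusted p = 0.688). RPL11 (ENSG00000142676) had 681 and 419 CPM with Neoribocic, against 405 and 330.5 CPM with DMSO. The groups did not overlap for RPL11, but its log2 fold change of 0.58 ± 0.26 did not pass (edgeR adjusted p = 0.109). It passed without Neoribocic replicate 2 (0.0337).

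Among genes for proteins close to the catalytic centre and the exit tunnel, RPL3 and RPL10 rose in the uncorrected fit. RPL3 (ENSG00000100316), which reaches towards the peptidyl transferase centre, had 1369 and 1195 CPM with Neoribocic, against 893 and 730.0 CPM with DMSO. Its log2 fold change was 0.66 ± 0.21 (edgeR adjusted p = 0.0357), and in the fits that left out 1 library it passed only without DMSO replicate 1 (0.0382). RPL10 (ENSG00000147403), one of the last proteins to join the large subunit, had 511 and 396 CPM with Neoribocic, against 271 and 163 CPM with DMSO. It rose by 1.06 ± 0.28 (edgeR adjusted p = 0.0184), but not without DMSO replicate 2 (0.0702) or Neoribocic replicate 1 (0.105). Genes on the opposite strand overlap 52.7% of its exon bases. RPL35, near the tunnel exit, rose by 0.98 ± 0.26 (edgeR adjusted p = 0.0193), a call that held only without Neoribocic replicate 2 (0.00996) when 1 library was left out; otherwise the adjusted p was 0.0871 to 0.144. With the correction RPL3, RPL10 and RPL35 stood at 0.10, 0.66 and -0.09 and were not called (edgeR adjusted p = 0.678, 0.138 and 0.653). RPL39 and RPL41 encode the smallest proteins of the group, with RPL39 in the wall of the exit tunnel. RPL39 had 552 and 146 CPM with Neoribocic, against 108 and 74.1 CPM with DMSO, and RPL41 had 1861 and 711 CPM, against 495 and 372 CPM. Neither passed, with log2 fold changes of 1.94 ± 0.74 and 1.57 ± 0.48 (edgeR adjusted p = 0.115 and 0.0520); without Neoribocic replicate 2 both did (0.00397 and 0.00455).

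Of the small subunit genes, RPS3, RPS14, RPS19 and RPSA were among those whose messages rose in the uncorrected fit. RPS3 (ENSG00000149273), at the channel where mRNA enters, had 581 and 381 CPM with Neoribocic, against 227 and 214 CPM with DMSO, a log2 fold change of 1.12 ± 0.24 (edgeR adjusted p = 0.00736, or 0.0551 without Neoribocic replicate 1). RPS19 (ENSG00000105372), the gene most often mutated in Diamond-Blackfan anaemia, had 457 and 289 CPM with Neoribocic, against 152.5 and 109 CPM with DMSO. It rose by 1.51 ± 0.28 (edgeR adjusted p = 0.00494) and stayed below 0.05 when each library was left out. RPS14 (ENSG00000164587), the haploinsufficient gene of the 5q- syndrome, had 1063 and 539 CPM with Neoribocic, against 397 and 385 CPM with DMSO. Its rise of 1.03 ± 0.32 (edgeR adjusted p = 0.0357) did not pass without DMSO replicate 1 or 2 or Neoribocic replicate 1 (0.171, 0.172 and 0.206). RPSA (ENSG00000168028), also known as a laminin receptor, had 1331 and 982 CPM with Neoribocic, against 656 and 498 CPM with DMSO, and rose by 1.0 ± 0.24 (edgeR adjusted p = 0.0118). It did not pass without DMSO replicate 2 or Neoribocic replicate 1 (0.0604 and 0.0871). With the correction RPS19, RPS14 and RPSA stood at 0.54, 0.20 and 0.62 and were not called (edgeR adjusted p = 0.0901, 0.496 and 0.055).

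RPS6 and RPS27A did not pass. RPS6 (ENSG00000137154), the substrate of the S6 kinases, had 509 and 519.5 CPM with Neoribocic, against 694 and 509 CPM with DMSO (-0.23 ± 0.21; edgeR adjusted p = 0.418). RPS27A (ENSG00000143947), made as a fusion with ubiquitin, had 389.6 and 163 CPM with Neoribocic, against 155 and 121 CPM with DMSO (1.0 ± 0.43; edgeR adjusted p = 0.116, or 0.00734 without Neoribocic replicate 2). Neoribocic replicate 1 alone stood far from the other libraries for RPS27A.

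The smallest p-values of the 77 genes belonged to RPL36, RPS15 and RPL13. RPL36 (ENSG00000130255) had 927 and 531 CPM with Neoribocic, against 229.7 and 213 CPM with DMSO, a log2 fold change of 1.72 ± 0.28 (edgeR adjusted p = 0.00305). RPS15 (ENSG00000115268), close to the decoding site, had 242 and 192 CPM with Neoribocic, against 102 and 92.8 CPM with DMSO, a log2 fold change of 1.15 ± 0.20 (edgeR adjusted p = 0.00348). RPL13 (ENSG00000167526) had 808 and 527 CPM with Neoribocic, against 277 and 234 CPM with DMSO, a log2 fold change of 1.39 ± 0.25 (edgeR adjusted p = 0.00386). In all 8 genes, RPL13, RPL29, RPL36, RPL8, RPLP2, RPS15, RPS16 and RPS19, were called higher with 4 libraries and in each fit without 1 library, fits in which the other group supplies the spread of the lone library. With the correction RPL13 and RPL36 were called and RPS15 was not (0.03; edgeR adjusted p = 0.869).

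**Figure D2:**
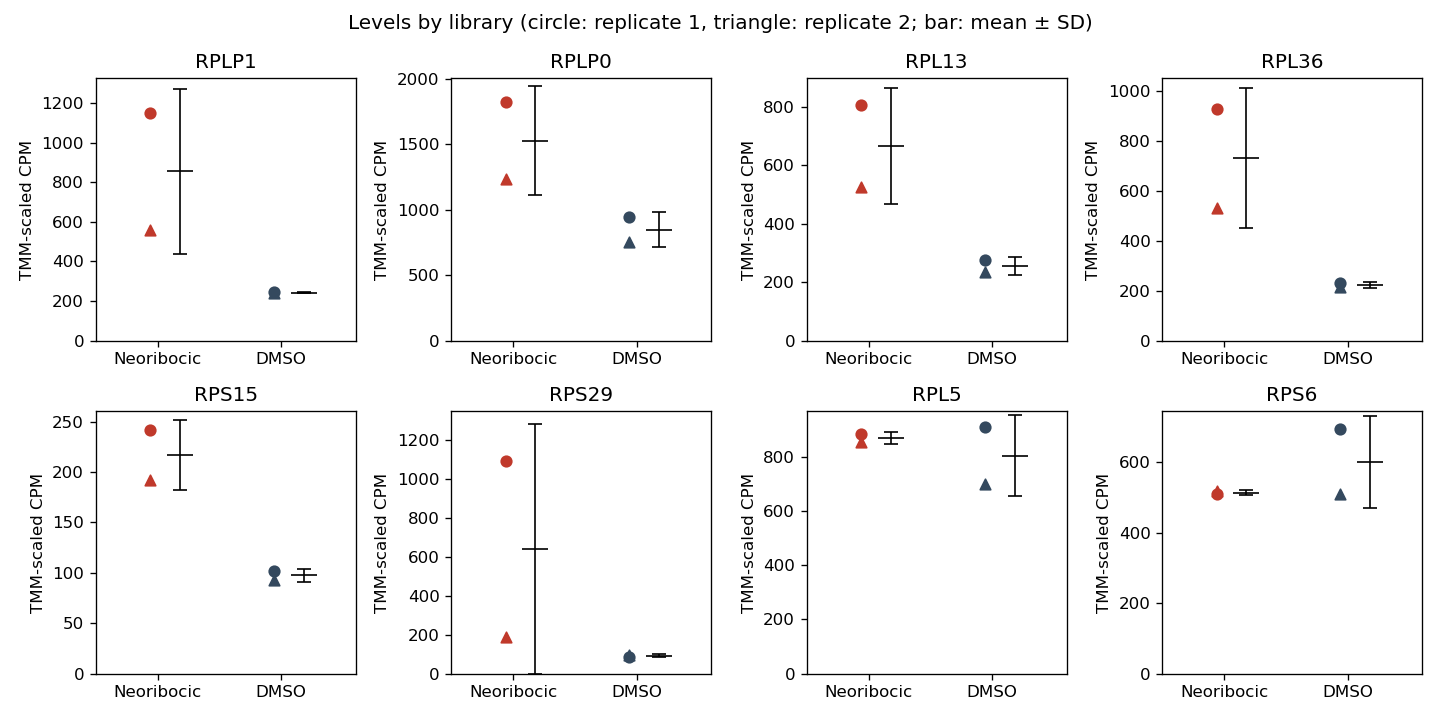
TMM-scaled CPM (vertical axis) of 8 ribosomal protein genes in Neoribocic (red, left) and DMSO (dark blue-grey, right) libraries; circles are replicate 1, triangles replicate 2, and the bar is the mean ± SD (n = 2), and the lower bar of RPS29 is cut at 0. The groups are apart for RPLP1, RPLP0, RPL13, RPL36, RPS15 and RPS29 and overlap for RPL5 and RPS6, and RPS29 has 1095 CPM in Neoribocic replicate 1 but 186 CPM in replicate 2.

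The 5 largest fold changes belonged to genes that did not pass in the edgeR fit, and in each the Neoribocic libraries lay far apart. With DESeq2 RPS29, RPS21, RPL34 and RPS27 passed (adjusted p = 0.0166, 0.0124, 1.06e-04 and 1.45e-04), and RPL39 did not (0.0603). The same held with limma-voom (adjusted p = 0.0404, 0.0238, 0.0335 and 0.0356, and 0.0545 for RPL39). RPS29 (ENSG00000213741), a small zinc-binding protein of the small subunit head, had 1095 and 186 CPM with Neoribocic, against 85.0 and 96.2 CPM with DMSO. Its log2 fold change was 2.82 ± 1.03 (edgeR adjusted p = 0.121). RPS21 (ENSG00000171858) had 874 and 227 CPM with Neoribocic, against 104 and 102 CPM with DMSO, a log2 fold change of 2.42 ± 0.71 (edgeR adjusted p = 0.0629). In RPS29 and RPS21 both Neoribocic libraries were above both DMSO libraries. Leaving out either Neoribocic library removes the spread between them, and the test then takes its spread from the DMSO pair, so these values do not measure how far the Neoribocic libraries agree. In those fits both genes passed. Without replicate 1 RPS29 was at 1.05 and RPS21 at 1.15 (edgeR adjusted p = 0.0280 and 0.0199), and without replicate 2 at 3.60 and 3.08 (0.00397 each). RPL34, RPS27 and RPL39 had log2 fold changes of 2.06 ± 0.67, 2.01 ± 0.65 and 1.94 ± 0.74 (edgeR adjusted p = 0.0772, 0.0709 and 0.115). RPS27 (ENSG00000177954), which also carries a zinc finger, had 2195.5 and 611 CPM with Neoribocic, against 380.2 and 316 CPM with DMSO. Likewise, without Neoribocic replicate 2 RPL34 and RPS27 passed (0.00397 each), and without replicate 1 they stood at 0.92 and 0.82 and did not (0.0624 and 0.0596).

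At the other end, RPL6, RPL14, RPS6, RPL7, RPS4X and RPL23A had negative log2 fold changes and 0 of these 6 passed. RPL6 (ENSG00000089009) had 512 and 493 CPM with Neoribocic, against 883 and 631 CPM with DMSO, with both Neoribocic libraries below both DMSO libraries (-0.59 ± 0.22; edgeR adjusted p = 0.0600, or 0.0343 without DMSO replicate 2). RPL14 (ENSG00000188846) had 397 and 417 CPM with Neoribocic, against 559 and 445 CPM with DMSO (-0.30 ± 0.20; edgeR adjusted p = 0.252). RPS4X was at -0.14 ± 0.19 and RPL7 at -0.20 ± 0.26 (edgeR adjusted p = 0.565 and 0.570). In RPS4X both Neoribocic libraries lay below both DMSO libraries, and in RPL7 the groups overlapped.

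**Figure D3:**
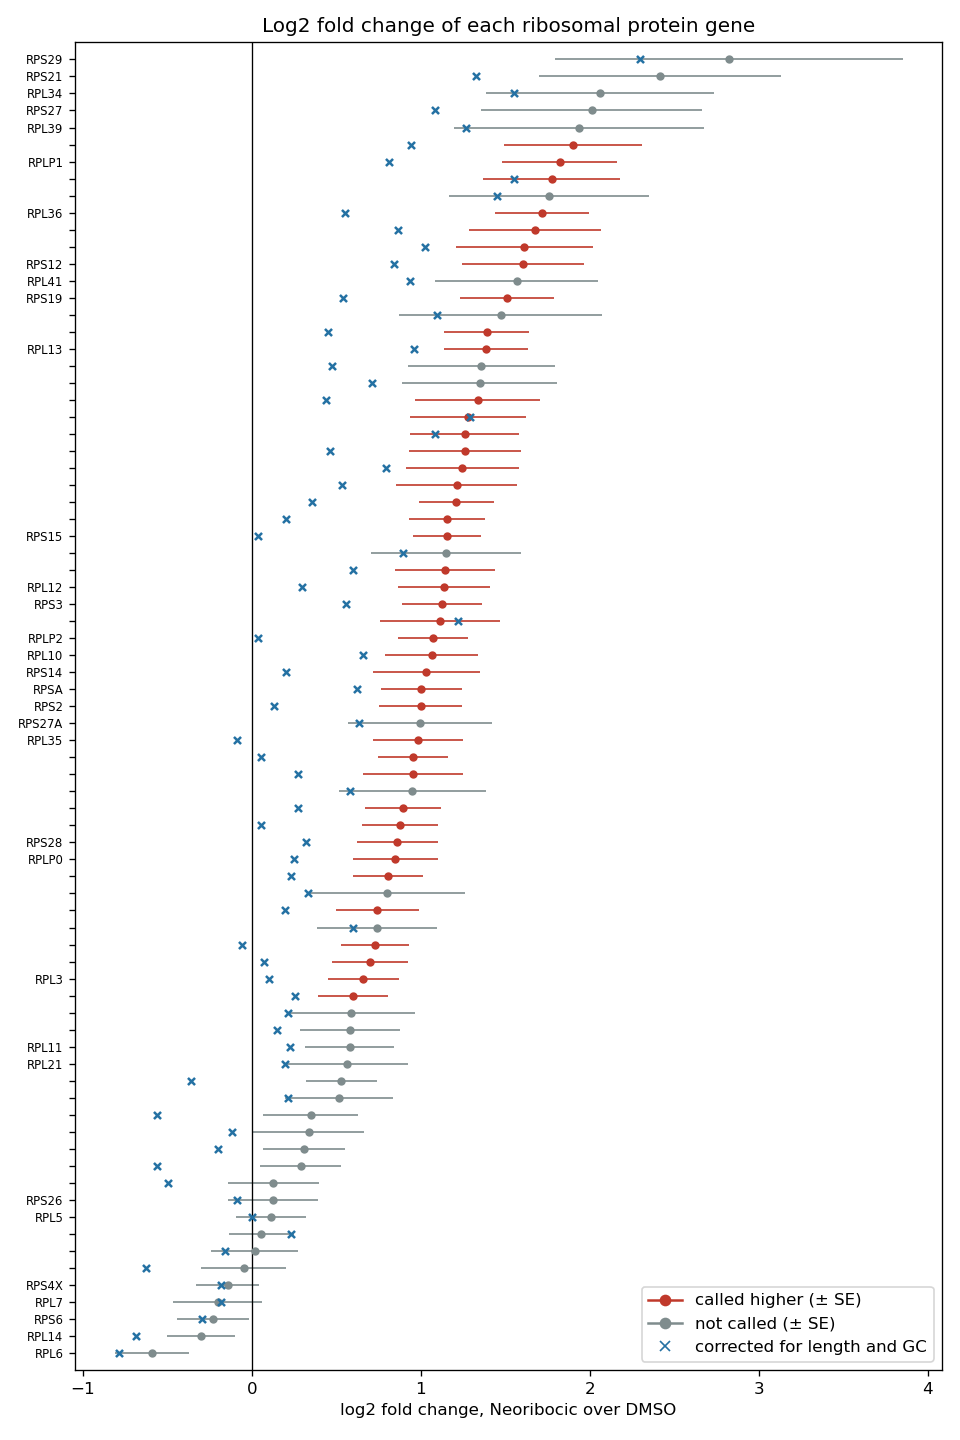
Log2 fold change, Neoribocic over DMSO (horizontal axis), of each of the 77 ribosomal protein genes with its SE, with some of the genes labelled; red marks the 41 genes called higher, grey the 36 not called, and blue crosses the value corrected for length and GC content. Values run from -0.59 (RPL6) to 2.82 (RPS29), and the widest errors are at the top.

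Fold changes were larger in genes with a shorter coding sequence. Coding lengths, from GENCODE 29, ran from 75 bases in RPL41 to 1281 in RPL4, with a median of 456, against 1383 over all genes tested. Their transcripts were short, with a median of 750.5 bases against 2527, but not rich in GC, with a median of 50.3% against 49.9%. Across the 77 genes the Spearman correlation of the log2 fold change was -0.55 with coding length and 0.15 with GC content, which describes genes measured in the same 4 libraries. Over all genes tested it was -0.36 with coding length and 0.45 with GC content. The 25 genes with under 400 coding bases had a median log2 fold change of 1.47, the 30 with 400 to under 600 had 0.98, and the 22 with at least 600 had 0.72; these class limits were chosen after the values were seen. Calls went the other way, at 11 of 25, 16 of 30 and 14 of 22, and the median SE was 0.39, 0.30 and 0.22.

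The difference between the Neoribocic libraries was also larger in shorter genes. Replicate 2 minus replicate 1 had a median of -1.18 in the shortest class, -0.81 in the middle and -0.38 in the longest, and its Spearman correlation with coding length was 0.74 over the 77 genes. For DMSO the medians were -0.16, -0.21 and -0.30 and the correlation -0.24. With GC content the correlations of the replicate difference were 0.38 for Neoribocic and 0.40 for DMSO over the 77 genes, and -0.50 and 0.31 over all genes tested, where those with coding length were 0.29 and -0.06. RPS29, RPS21 and RPL39 differed most between the Neoribocic libraries, with log2 differences of -2.55, -1.94 and -1.92 (replicate 2 minus replicate 1). RPL21, RPL10 and RPS12 differed most between the DMSO libraries, with -0.80, -0.73 and -0.61. Other genes showed the length relation in weaker form. The 746 other tested genes with under 400 coding bases had a median log2 fold change of 0.68, with 35.5% called higher and 4.29% lower, and a median difference between the Neoribocic libraries of -0.37.

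**Figure D4:**
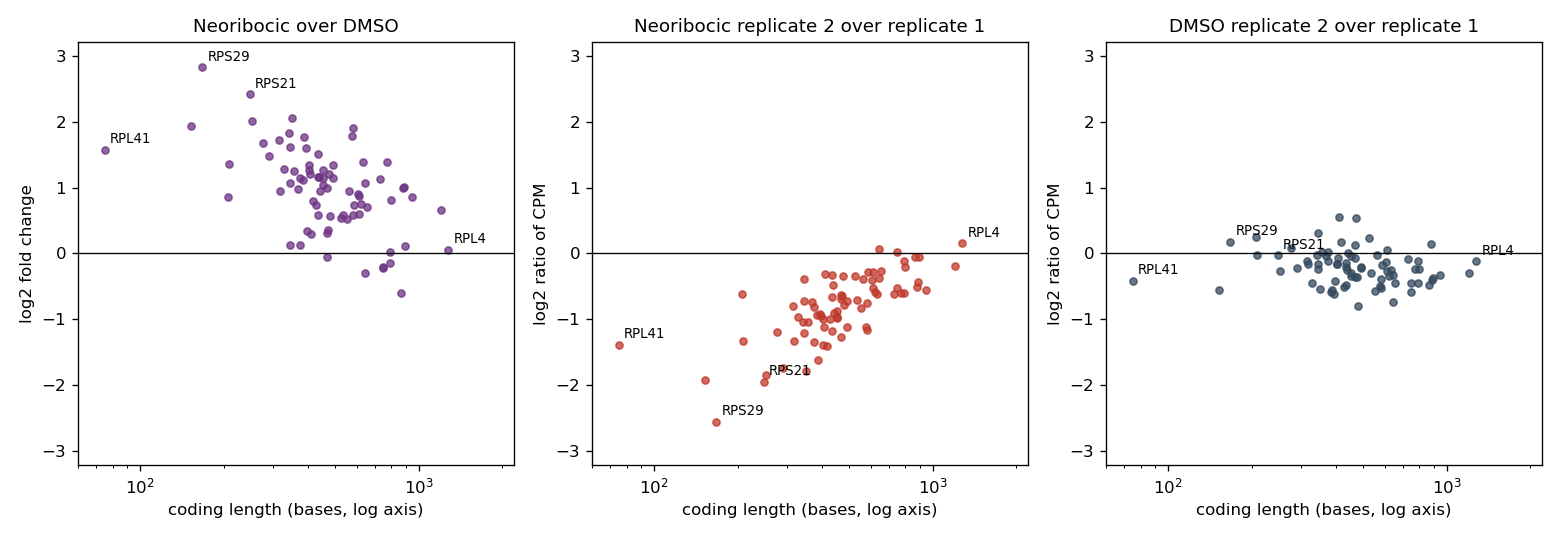
Coding length of the 77 ribosomal protein genes (horizontal log axis) against the log2 fold change of Neoribocic over DMSO (left), and the log2 ratio of replicate 2 over replicate 1 for Neoribocic (middle) and DMSO (right). Short genes such as RPS29 and RPS21 are highest on the left and lowest in the middle, and the right panel is flatter.

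Since the libraries differed along length and GC content, a fit was made in which a smooth surface of expression on transcript length and GC content was removed from each library. The median log2 fold change of the ribosomal protein genes was then 0.30, and 9 of the 77 were called higher and 3 lower. Both are smaller shares than the 16.7% and 18.5% of all genes tested. The 9 were RPL13, RPL22, RPL30, RPL35A, RPL36, RPL37A, RPL9, RPLP1 and RPS3, all among the 41 of the uncorrected fit. RPL22 and RPL35A, with 384 and 330 coding bases, entered the surface with median annotated transcript lengths of 1432 and 1234 bases. Those genes stood at 1.11 and 1.28 without the correction and at 1.22 and 1.29 with it. The part of the assigned lengths in these calls was not tested. RPL13 stood at 0.96, RPL36 at 0.55, RPLP1 at 0.81 and RPS3 at 0.56 (edgeR adjusted p = 0.0204, 0.0427, 0.0290 and 0.0451). RPL13 and RPL36 were the 2 genes called higher both here and whichever library was left out of the uncorrected fit. Of the exon bases of RPL36, 17.6% are shared with HSD11B1L on the same strand. In 15 of the 77 genes at least 10% of the exon bases are shared with another gene. RPL6, RPL14 and RPL23A were called lower, at -0.78, -0.68 and -0.63 (edgeR adjusted p = 0.0220, 0.0353 and 0.0341). Many uncorrected rises shrank, that of RPS15 to 0.03, that of RPLP2 to 0.04 and that of RPS2 to 0.13 (edgeR adjusted p = 0.869, 0.852 and 0.520). RPS29 kept a value of 2.30 without passing (0.0730). After the correction the relation with coding length was still -0.48 over the 77 genes and the Neoribocic libraries still differed by a median of -0.47. A response that itself follows length would be removed with the surface, so the corrected and uncorrected values cannot be told apart as the better estimate. With the coding length in the surface in place of the transcript length, 6 genes were called higher and 1 lower.

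Levels between genes were compared per kilobase of transcript. Within a library the highest gene exceeded the lowest 23.6-fold and 18.1-fold in Neoribocic replicates 1 and 2, against 16.5-fold and 21.3-fold in DMSO replicates 1 and 2. The SD between genes on the log2 scale was 1.09 and 0.98 in the Neoribocic libraries, and 0.97 and 1.04 in the DMSO libraries. The highest by geometric mean over the 4 libraries were RPL12, RPL35 and RPS2, a protein at the mRNA entry channel. RPL12 had 4642.5 and 2828 CPM per kilobase with Neoribocic, against 1820.2 and 1575 with DMSO. RPS2 rose by 1.0 ± 0.25 on the log2 scale (edgeR adjusted p = 0.0135, or 0.117 without Neoribocic replicate 1). The lowest were RPS28, RPL10 and RPS26. Their annotated transcript lengths, by which the levels were divided, were 1326, 1747 and 1140 bases, against a median of 750.5 for the 77 genes. RPS28 had 265 and 173 CPM per kilobase with Neoribocic, against 110.2 and 131 with DMSO, and rose by 0.86 ± 0.24 (edgeR adjusted p = 0.0227); it passed only without Neoribocic replicate 2 (0.0137) when 1 library was left out, and with the correction it stood at 0.32 and was not called. RPS26, which lies at the mRNA exit, had 295 and 178 CPM with Neoribocic, against 194 and 240.3 CPM with DMSO, so the groups overlapped (0.12 ± 0.26; edgeR adjusted p = 0.729). RPS12 rose by 1.61 ± 0.36 (edgeR adjusted p = 0.0155, or 0.0866 without DMSO replicate 2 and 0.0709 with the correction), and RPL21 was at 0.57 ± 0.36 (0.247). GENCODE 29 lists 1132 pseudogenes named after these 77 genes, 91 of them for RPL23A, and how the authors counted reads that match several copies is not stated in the labels. Levels, and the order of the levels, are uncertain to that extent. The order per kilobase also depends on the lengths, medians over annotated transcripts that may not be those used in these cells.

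Outside the naming rule, FAU, whose product is cut to release the small subunit protein S30, had 188 and 110.4 CPM with Neoribocic, against 46.8 and 48.0 CPM with DMSO, and rose by 1.66 ± 0.27 (edgeR adjusted p = 0.00299; corrected 0.65). Of 8 paralogs of ribosomal protein genes 7 were tested, 2 rose and 0 fell (28.6% and 0%, against 19.1% and 21.3% of all genes tested). RPL39L rose by 1.16 ± 0.32 and RPS27L by 1.48 ± 0.39 (edgeR adjusted p = 0.0241 and 0.0261), calls that held only without Neoribocic replicate 2 (0.00647 and 0.00541) when 1 library was left out. With the correction RPL39L was at 0.50 and was not called (0.143).

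Mitochondrial ribosomal protein genes, the nuclear genes of the separate ribosome inside mitochondria, were the group most like them by function. All 78 were tested, and 25 rose and 5 fell (32.1% and 6.41%, against 19.1% and 21.3% of all genes tested). Of the 77 cytosolic genes 41 rose and 0 fell. The median log2 fold change was 0.46 (corrected 0.09), against 1.0 (corrected 0.30) for the cytosolic genes. With the correction 11 of the 78 were called higher and 7 lower, against 9 and 3 of the 77 cytosolic genes. Of all genes tested 16.7% and 18.5% were then called. MRPS24 rose by 1.5 ± 0.20 and MRPL2 by 1.69 ± 0.25, while MRPL1 fell by 1.55 (edgeR adjusted p = 0.00143, 0.00174 and 0.00255). MRPL42 fell by 0.81 (edgeR adjusted p = 0.0163), a call lost without DMSO replicate 2 or either Neoribocic library (0.0595 to 0.0895). No difference between these groups was tested, since their genes share the same 4 libraries.

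Of 22 translation factors and other genes known for a TOP tract, 2 rose and 7 fell (9.09% and 31.8%, against 19.1% and 21.3% of all genes tested), with a median of -0.12 (corrected -0.30). The difference from the ribosomal protein genes was not tested. EEF1G and EEF2, which encode an elongation factor subunit and the translocase, rose by 0.87 ± 0.22 and 0.73 ± 0.22 (edgeR adjusted p = 0.0160 and 0.0297; with the correction 0.37 and 0.36, neither called, at 0.126 and 0.128). Without Neoribocic replicate 1 neither passed (0.127 and 0.184), nor did EEF2 without DMSO replicate 1 (0.0631) or Neoribocic replicate 2 (0.0730). HNRNPA1, an RNA-binding protein gene, fell to 174 and 219 CPM with Neoribocic, against 643 and 516 CPM with DMSO (-1.56 ± 0.22; edgeR adjusted p = 0.00154). EIF3E, a subunit of initiation factor 3, fell by 1.34 (edgeR adjusted p = 0.00169). The coding length had a median of 1147.5 bases in this list, against 456 in the ribosomal protein genes; its part in these values was not tested.

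Among 15 genes of mTORC1 signalling and TOP mRNA binding, 2 rose and 4 fell (13.3% and 26.7%), shares near those of all genes tested (19.1% and 21.3%). RPS6KB2, an S6 kinase gene, rose by 1.48 ± 0.24 and EIF4EBP1, the repressor of cap-dependent initiation, by 1.11 ± 0.29 (edgeR adjusted p = 0.00267 and 0.0209; corrected 0.76 and 0.15). EIF4EBP1 was not called with the correction (0.568), and held its call only without Neoribocic replicate 2 (0.00628) when 1 library was left out. TIA1 and LARP4, which encode RNA-binding proteins, fell (log2 fold changes of -1.69 and -1.43; edgeR adjusted p = 0.00270 and 0.00380). LARP1, added here after its values were seen since it binds the tract, was at 0.33 ± 0.20 and was not called (edgeR adjusted p = 0.210). With the correction LARP1 was at 0.71 and was called higher (edgeR adjusted p = 0.0190). Of 16 genes for carriers and nuclear importers of ribosomal proteins 3 rose and 7 fell (18.8% and 43.8%), where the share rising is that of all genes tested (19.1%) and 21.3% of all genes fell. The importin genes KPNB1 and IPO7 fell (-1.52 and -1.81; edgeR adjusted p = 0.00115 and 0.00127). AAMP and PDCD2L rose by 1.47 ± 0.24 and 1.47 ± 0.25 (edgeR adjusted p = 0.00272 and 0.00312); the yeast relative of AAMP is the carrier of the protein that RPL10 encodes. Of 15 genes of ribosome surveillance and stalling 3 rose and 5 fell (20% and 33.3%, against 19.1% and 21.3% of all genes tested), so the share rising was at that of all genes. ASCC3 and NEMF, which act on stalled ribosomes, fell (-2.44 and -1.91; edgeR adjusted p = 7.83e-04 and 0.00100). ZNF598, the ligase that marks collided ribosomes, and PELO, a ribosome rescue factor, rose by 0.99 ± 0.21 and 0.85 ± 0.21 (edgeR adjusted p = 0.00836 and 0.0141). Without Neoribocic replicate 1 neither passed (0.0685 and 0.102), nor did PELO without DMSO replicate 1 (0.0737).

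**Figure D5:**
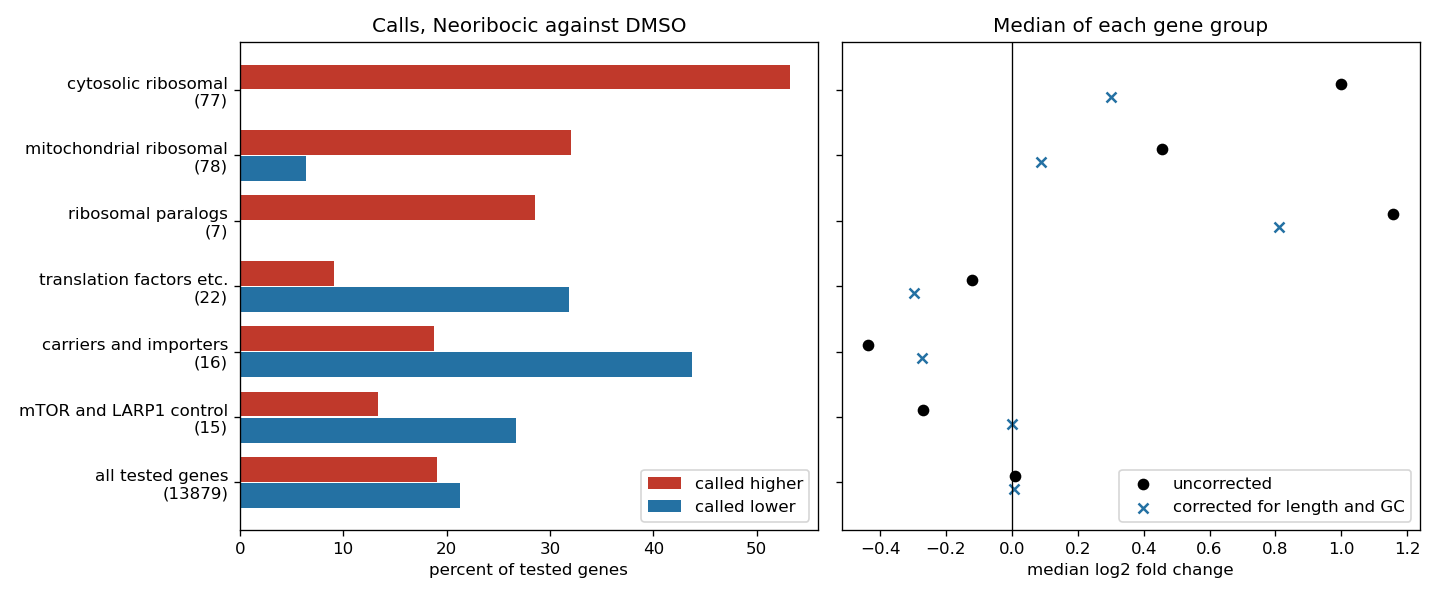
Share of tested genes called higher (red) or lower (blue) with Neoribocic against DMSO (left), and the median log2 fold change without and with the correction for length and GC content (right), for gene groups with the number tested in brackets. Without the correction, cytosolic ribosomal protein genes have the highest share called higher of the groups shown. Like the paralogs, they have no call lower. Their median falls to 0.30 with the correction, against 1.0 without it.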

How the data were processed

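The deposited values were raw counts for human Ensembl genes, not normalized. The submitters' processing notes name only mouse builds, and no label states the aligner, counter, strand setting or annotation. Even numbers made up 62.3% to 65.4% of counts below 20 against 50.3% to 51.3% of counts of 20 to 200, and halved counts were tried, in case both mates of a pair had been counted. Symbols came from the gene name table, which held 20148 of 20263 IDs, and from GENCODE 29, in which 20224 were found; lengths and GC content are medians over a gene's basic protein-coding transcripts there.

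Genes were kept with filterByExpr, scaled by TMM and tested with edgeR 4.0.16 (R 4.3.3; robust quasi-likelihood fit, group as the only term), with Benjamini-Hochberg adjustment over 13879 genes and a threshold of 0.05. SE is the log2 fold change divided by the square root of F. Levels are CPM, mean ± SD. Alternatives used DESeq2 1.42.0, limma 3.58.1 and, for the length and GC surface, mgcv 1.9.3.

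The genes and lists were chosen with earlier results of these data known. Named were genes with set roles, the 5 highest and 5 lowest fold changes, the smallest p-values, the extreme levels per kilobase, the largest replicate differences and, of each related list, up to 2 genes per direction. Results for some genes are not reported here.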

Additional observations from a re-analysis of the deposited data

How the results depend on the processing

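The 41 ribosomal protein genes called higher were 41 with RLE size factors, TMM without these genes, without the mitochondrially encoded genes and with halved counts, 40 with no filter, 47 with library totals (which moved the median of all genes to 0.18) or limma-voom, and 53 with DESeq2, which also called 1 lower (RPL6). Leaving out 1 library gave 11 to 56 higher and 0 to 1 lower, with medians of 0.58 to 1.31 for the log2 fold change. A threshold of 0.01 left 11. The correction for length and GC content gave 9 higher, 3 lower and a median of 0.30; with the coding length, chosen after seeing the data, it gave 6 higher, 1 lower and 0.41. Across genes the replicate differences of the groups were not correlated (-0.05 over all genes, -0.008 over the 77), and the numbers were not taken as pairs. This correlation cannot decide whether they are pairs. Over all genes the differences followed GC content in opposite directions, with Spearman correlations of -0.50 for Neoribocic and 0.31 for DMSO. Nor can the correlation between groups register a shift common to the 77 genes. Their median difference, replicate 2 minus replicate 1, was negative in both groups (-0.73 for Neoribocic and -0.23 for DMSO). With the replicate number as a block 53 genes were called higher, 40 of them among the 41.

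Of the named genes, 11 log2 fold changes had the other sign, and in 0 of these fits was that gene called. With library totals RPS4X was at 0.021. With the correction RPL35 was at -0.089 and RPS26 at -0.086; with coding length RPS28 was at -0.13 and RPS26 at -0.47. Leaving out 1 library gave -0.27 (without Neoribocic replicate 1) to 0.45 (without Neoribocic replicate 2) for RPS26, with -0.024 without DMSO replicate 1. It gave -0.48 to 0.12 for RPL7, lowest without Neoribocic replicate 1 and highest without DMSO replicate 1, with 0.039 without Neoribocic replicate 2. It gave -0.42 (without DMSO replicate 2) to 0.013 (without DMSO replicate 1) for RPS6, and -0.052 (without DMSO replicate 2) to 0.31 (without DMSO replicate 1) for RPL5. For other named values 402 kept direction and call, 48 lost the call and 34 gained it.

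The median difference between the Neoribocic libraries (replicate 2 minus replicate 1) was -0.72 with RLE, -0.62 with library totals, -0.74 with TMM without these genes and -0.47 with the correction. For DMSO it was -0.22 with RLE, -0.46 with library totals, -0.22 without mitochondrially encoded genes and -0.24 with the correction. The cause of these changes was not tested. At 2431 counts or more per gene and library, counting error was at most 2.03%; with 2 libraries a group, the spread between libraries is estimated from few values.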

Other observations

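Readthrough genes that join a ribosomal protein gene to its neighbour have their own rows and share exons with RPL17, RPL36A and RPS10. RPL17-C18orf32 had 10.4 and 34.0 CPM in the Neoribocic libraries, against 12.6 and 6.46 CPM in the DMSO libraries. RPL36A-HNRNPH2 had 46.8 and 21.4 CPM with Neoribocic, against 9.95 and 25.1 CPM with DMSO. RPS10-NUDT3 had 51.7 and 13.7 CPM with Neoribocic, against 13.2 and 19.4 CPM with DMSO. The groups overlapped in all 3, and 0 of them passed edgeR's test (adjusted p = 0.208, 0.249 and 0.289). RPL17-C18orf32 was higher in Neoribocic replicate 2 than in replicate 1, unlike RPL17 itself, at 504 and 284 CPM. Of the exon bases of RPS10 39.4%, and of those of RPL17 32.7%, are shared with other genes on the same strand, so reads of these genes can be divided between rows.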
